A study of Homo sapiens with 4 samples.

Results

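Laminins are the trimeric glycoproteins that organise basement membranes, and the genes described here are 8 laminin chain genes measured in BEAS-2B cells with and without cadmium. The members were chosen by name from the gene tables (LAMA1, LAMA3, LAMA4, LAMA5, LAMB1, LAMB2, LAMB3 and LAMC1), 8 of 25411 genes in all. The rule is a list of names, made with earlier results of these data known. They comprise 4 alpha, 3 beta and 1 gamma chain. BEAS-2B is an immortalised cell line derived from human bronchial epithelium. RNA was sequenced from 2 control libraries, grown 72 h with no metal added, and from 2 libraries of cells given 5 µM CdCl2 for 72 h, all from the same line and medium. The labels do not say whether the replicates came from separate cultures, so the spread between them may be only technical. The labels also give the controls and the cadmium samples different experiment numbers, and an experiment effect and a cadmium effect cannot be told apart.

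Each laminin is assembled inside the cell from 1 alpha, 1 beta and 1 gamma chain joined by a long coiled coil, and the alpha chain then carries the globular domains that bind integrins and dystroglycan on the cell surface. LAMC1 encodes the gamma chain of most laminins and LAMB1 and LAMB2 their beta chains, whereas LAMA3 and LAMB3 encode chains of the laminin that anchors epithelial cells through hemidesmosomes. In airway epithelium the laminins of the basement membrane hold basal cells in place and are remodelled during repair.

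Libraries held between 8609243 and 29937242 reads in genes, and 3 reads corresponded to 0.098 to 0.356 CPM (reads scaled to a common library depth with TMM factors). Of the 13663 genes tested with edgeR's quasi-likelihood test, 8.85% were higher and 7.66% lower with cadmium at a Benjamini-Hochberg adjusted p under 0.05, the threshold used throughout. With scaling by library size alone 1445 genes were higher and 682 lower, in place of 1209 and 1046. The simple-epithelial keratins KRT8 (540 to 649 CPM) and KRT18 (204 to 285 CPM) were abundant in every library, but KRT19 had at most 7 reads. The basal keratins KRT5 and KRT14 had at most 1 read and the basal regulator TP63 had 0, whereas KRT17 stood at 21.2 to 118 CPM. The fibroblast genes COL3A1 and DCN had 0 reads, and COL1A1 was abundant (3068 to 4379 CPM). Of the same marker list, COL1A2 stood at 1.18 to 2.23 CPM and PDGFRB at 162 to 205 CPM.

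With cadmium, 3 alpha chain genes rose: LAMA5 by 1.79 on the log2 scale (3.45-fold), LAMA4 by 1.96 from a handful of reads, and LAMA3 by 0.48 (1.4-fold). None of the beta chains and not the gamma chain passed the test, nor did LAMA1, and 0 members fell. The count of 3 higher among 8 members stands beside 8.85% of all tested genes. LAMA4 entered the test only through its cadmium libraries, since both of its controls lay below the filter level of 0.475 CPM, and without it the count is 2 of 7. The fitted log2 fold changes of all 8 members were above 0, with a median of 0.44, or 0.40 over the 7 without LAMA4, against 0.0019 over all tested genes. In 6 of the 8, or 5 of the 7 without LAMA4, both cadmium libraries lay above both controls in CPM, as they did in 31.3% of all tested genes. In 0 members did both lie below both controls, against 30.8% of all tested genes. In RNA from whole cultures, more cells of one kind and more RNA per cell cannot be told apart.

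The promoters of the 3 members called higher, LAMA4 tested only through its cadmium libraries, are shown as a description. They come from RefSeq (GRCh38.p14), which held a promoter for 7 of the 8 members (not LAMA1), and run from 250 bases before to 50 bases after the annotated start, on the strand of the gene. Capitals mark CACCTG, a form of the E-box that SNAIL1, the repressor named in the study's title, can bind, and the core of the metal response element, TGCACNC or TGCGCNC, both searched on both strands. LAMA5 lies at chr20:62367263-62367562 (minus strand), LAMA3 at chr18:23872770-23873069 (plus strand) and LAMA4 at chr6:112254518-112254817 (minus strand).
LAMA5: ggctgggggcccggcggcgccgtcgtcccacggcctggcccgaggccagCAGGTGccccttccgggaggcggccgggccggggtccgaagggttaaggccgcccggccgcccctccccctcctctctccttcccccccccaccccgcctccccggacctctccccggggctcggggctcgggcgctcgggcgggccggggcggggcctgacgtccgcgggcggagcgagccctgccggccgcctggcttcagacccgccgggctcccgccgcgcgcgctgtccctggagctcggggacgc
LAMA3: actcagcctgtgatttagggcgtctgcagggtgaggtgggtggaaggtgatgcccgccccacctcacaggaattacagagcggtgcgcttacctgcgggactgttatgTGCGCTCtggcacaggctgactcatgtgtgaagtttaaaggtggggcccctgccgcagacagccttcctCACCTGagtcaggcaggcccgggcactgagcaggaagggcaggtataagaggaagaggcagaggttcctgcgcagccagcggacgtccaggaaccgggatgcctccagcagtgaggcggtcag
LAMA4: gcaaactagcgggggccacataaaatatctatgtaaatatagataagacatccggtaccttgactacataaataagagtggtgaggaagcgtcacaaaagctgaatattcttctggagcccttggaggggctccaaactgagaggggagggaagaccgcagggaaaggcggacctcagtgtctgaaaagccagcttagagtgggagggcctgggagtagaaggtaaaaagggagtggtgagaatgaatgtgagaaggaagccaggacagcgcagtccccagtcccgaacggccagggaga

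The LAMA5 promoter held 1 CACCTG and 0 metal response element cores, LAMA3 held 1 of each, and LAMA4 held neither. Over all 35116 promoters of this length, 20.6% held CACCTG and 29.6% a metal response element core. The GC content was 82.7% in LAMA5, 61.7% in LAMA3 and 51.3% in LAMA4, against a median of 58.7% over all promoters. The LAMC1 promoter, whose gene did not pass the test, was of similar composition to that of LAMA5 (79% GC) and held 2 metal response element cores and 0 CACCTG. Across the 9 promoters listed for the members, 3 of them for LAMB3, the element core was present in 5 and CACCTG in 3. An element core shared by overlapping LAMB3 promoters, at -136 and at -232 from the start, is counted for each of them. These matches describe letters and were not tested for binding.

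The study's title also names miR-30e, so the 3' untranslated regions of the members were searched for TGTTTAC, the complement of its seed. The mature hsa-miR-30e-5p (RefSeq, GRCh38.p14, chr1:40754371-40754392, plus strand) is printed with its seed, bases 2 to 8, in capitals, followed by the 1 match among the 8 members, in LAMA1, with the matching letters in capitals.
hsa-miR-30e-5p: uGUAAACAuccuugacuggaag
LAMA1 site: ctggggagagatgttgTGTTTACgttac

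The match began 130 bases into the LAMA1 3' untranslated region of 335 bases, in the GENCODE v29 transcript with the longest coding sequence. Of 18983 coding genes with such a region 13.7% held a match, with a median length of 821 bases against 368 in the laminin members. LAMA5, LAMA3 and LAMA4 held 0. The microRNA itself was not measured in these libraries.

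LAMA5 (NM_005560, chr20:60884116-60942368 in hg19, minus strand) encodes the most widespread alpha chain of adult epithelial basement membranes, including that of the lung. Control replicates 1 and 2 held 205 and 117 of its reads against 1243 and 470 for the cadmium pair. Scaled for depth this came to 7.87 and 13.9 CPM in the controls and 40.6 and 29.7 CPM with cadmium, so that the groups were far apart although the controls themselves differed 1.77-fold. The log2 fold change was 1.79 (SE 0.29, adjusted p = 0.0148, edgeR), from 10.9 ± 4.26 to 35.2 ± 7.68 CPM (SD, n = 2 each). LAMA5 passed under all 14 alternatives run, with log2 fold changes from 1.35 to 2.16 on leaving out a library and 1.03 on the log2(RPKM + 1) scale. The authors' deposited table gives LAMA5 a log ratio of 1.32 and an adjusted p of 9.26e-09. That log ratio is below the log2 ratio of the mean RPKM given there, 0.830 in control and 2.74 with cadmium. It is therefore not a like measure to the edgeR value. RefSeq lists the antisense gene LAMA5-AS1 as overlapping LAMA5, and likewise LAMA4-AS1 for LAMA4 and LAMC1-AS1 for LAMC1. Since the use of strand in counting is not given in the sources used here, reads of each pair cannot be told apart. RefSeq also lists other genes that overlap LAMA1, LAMA3, LAMB1 and LAMB2, and their part in those counts was not tested.

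LAMA3 (4 RefSeq transcripts, listed at chr18:21452984-21535029 in hg19, plus strand) encodes the alpha chain of the hemidesmosomal laminin. It had 569 and 220 reads in the controls against 1012 and 525 with cadmium. These corresponded to 21.9 and 26.1 CPM in the controls and 33.1 and 33.2 CPM in the cadmium libraries, which were almost equal to each other and above both controls. The log2 fold change was 0.48 (SE 0.13, adjusted p = 0.0369, edgeR). This call was lost with DESeq2 (adjusted p = 0.0504), without control replicate 1 (adjusted p = 0.122), without cadmium replicate 1 (adjusted p = 0.180) and without cadmium replicate 2 (adjusted p = 0.156), and LAMA3 passed in 7 of 14 alternatives. The authors' deposited table gives LAMA3 a log ratio of 0.42 and an adjusted p of 0.0430.

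LAMA4 (5 RefSeq transcripts, listed at chr6:112574984-112575917 in hg19, minus strand) encodes a truncated alpha chain best known from the basement membranes of blood vessels, muscle and fat. It was the scarcest member, with 5 and 3 reads in the controls against 34 and 11 with cadmium. Both cadmium libraries lay above both controls, but the control values were at or near the floor of 3 reads. Summed over libraries, 45 reads stood against 8, a ratio of 4.17 after scaling for depth, with a 95% exact binomial interval from 1.95 to 10.3 that covers counting error only. The fitted log2 fold change of LAMA4 was 1.96 (SE 0.57, adjusted p = 0.0491, edgeR), and how far it depends on the prior count at this level was not tested. It did not pass without control replicate 1 (adjusted p = 0.285), without cadmium replicate 1 (adjusted p = 0.410) or without cadmium replicate 2 (adjusted p = 0.0956), nor with limma-voom (adjusted p = 0.0547). LAMA4 passed in 4 of the 10 alternatives that gave it an adjusted p. DESeq2 gave it no adjusted p, and the authors' deposited table gives it an unadjusted p of 0.103 and an adjusted p of 1. That 1 may stand for a missing value, since LAMA1, at an unadjusted p of 0.225, has an adjusted p of 0.474 there. The row spans 933 bases, far less than the gene, and its RPKM was not a fixed multiple of its reads. Relative to LAMC1, the reads per unit of RPKM of LAMA4 ranged from 0.188 to 0.700 between libraries, whereas this ratio was constant for the single-transcript members.

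Endothelial markers were looked at beside LAMA4 because that chain is prominent in vessels. Of 6 endothelial genes 1 was tested, the receptor gene TIE1, which rose by 1.68 (adjusted p = 0.0160, edgeR), a call lost without cadmium replicate 1 (adjusted p = 0.126). Their summed level was 1.19 to 1.5 CPM in the controls and 3.67 to 3.99 CPM with cadmium. Most of this was TIE1, at 1.04 and 0.713 CPM in the controls and 3.30 and 2.66 CPM with cadmium. PECAM1 had 0 reads in all 4 libraries and CDH5, which encodes VE-cadherin, at most 1. The part of such cells in the LAMA4 result was not tested.

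LAMA1 (NM_005559, chr18:6941743-7117813 in hg19, minus strand), the alpha chain of the earliest embryonic basement membranes, was the most abundant alpha chain. It had 1806 and 265 reads in the controls against 2376 and 1329 with cadmium. The controls stood 2.20-fold apart, at 69.4 and 31.5 CPM, while the cadmium libraries lay at 77.6 and 84.1 CPM, above both. The log2 fold change of LAMA1 was 0.63 (SE 0.42) and did not pass (adjusted p = 0.383, edgeR). The size of this difference depended on which control was used. For LAMA1 the value became 1.36 (adjusted p = 0.000158) without control replicate 1, and 0.21 (adjusted p = 0.174) without control replicate 2.

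**Figure D1:**
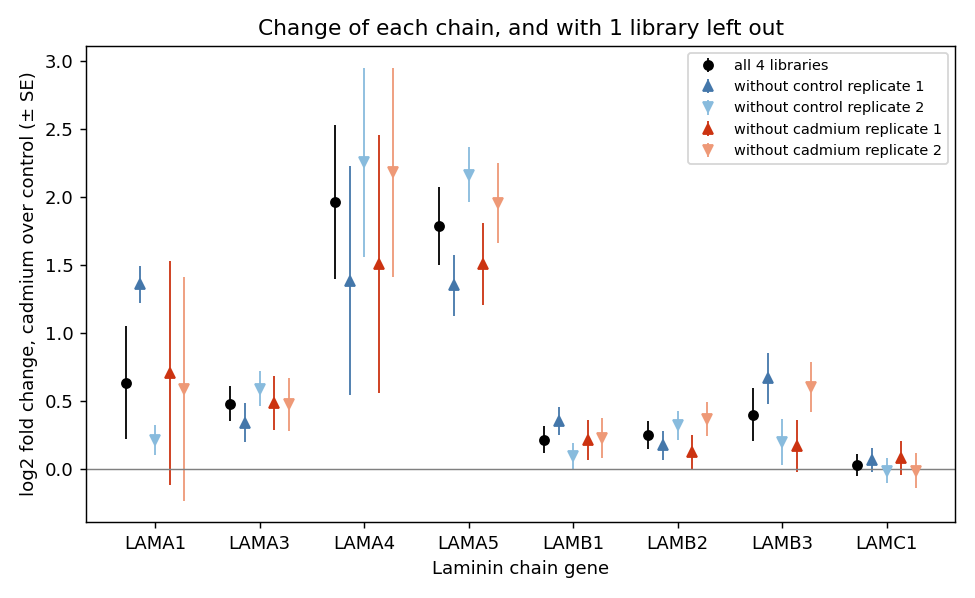
Log2 fold change of each laminin chain gene, cadmium over control, with its SE (edgeR), for all 4 libraries and with each library left out in turn. LAMA5 stays between 1.35 and 2.16, LAMA1 moves between 0.21 and 1.36, and LAMC1 lies near 0.

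The fitted changes of the beta chains were smaller than those of the alpha chains, though LAMB3 (0.40, SE 0.20) lay near LAMA3 (0.48, SE 0.13). The difference between the 2 classes was not tested. LAMB2 (NM_002292, chr3:49158547-49170599 in hg19, minus strand), the beta chain of neuromuscular and glomerular basement membranes, had 12172 and 4379 reads in the controls against 19532 and 8489 with cadmium. Its levels were 468 and 520 CPM against 638 and 537 CPM, so that cadmium replicate 2 was only just above control replicate 2. The log2 fold change of LAMB2 was 0.25 (SE 0.10, adjusted p = 0.122, edgeR), and it passed without control replicate 2 (0.32, adjusted p = 0.0363) and with no filter on low counts (adjusted p = 0.0484).

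LAMB1 (NM_002291, chr7:107564246-107643804 in hg19, minus strand), the beta chain shared by most laminins of developing tissues, had 3315 and 901 reads in the controls against 4210 and 2149 with cadmium. These were 127 and 107 CPM against 138 and 136 CPM, again with no overlap. For LAMB1 the fitted log2 fold change was 0.22 (SE 0.10, adjusted p = 0.169, edgeR), or 0.35 (adjusted p = 0.0371) without control replicate 1 and 0.095 without control replicate 2.

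LAMB3 (3 RefSeq transcripts, chr1:209788218-209825820 in hg19, minus strand), the partner of LAMA3 in the hemidesmosomal laminin, had 1791 and 421 reads in the controls against 2783 and 1060 with cadmium. At 68.8 and 50.01 CPM against 90.9 and 67.1 CPM the groups overlapped, since cadmium replicate 2 lay below control replicate 1. For LAMB3 the fitted log2 fold change was 0.40 (SE 0.20, adjusted p = 0.211, edgeR). It moved to 0.67 without control replicate 1, 0.60 without cadmium replicate 2, 0.20 without control replicate 2 and 0.17 without cadmium replicate 1.

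LAMC1 (NM_002293, chr1:182992595-183114727 in hg19, plus strand) had 9304 and 2862 reads in the controls against 10578 and 5803 with cadmium. Its levels, 357 and 340 CPM in the controls and 346 and 367 CPM with cadmium, overlapped and varied less between replicates than those of LAMA5 or LAMA1. The log2 fold change of LAMC1 was 0.031 (SE 0.079, adjusted p = 0.823, edgeR). It turned to -0.013 without control replicate 2 and to -0.012 without cadmium replicate 2.

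Laminin chain genes outside the 8 members included LAMA2, LAMC3 and LAMB4. LAMA2, the alpha chain of muscle and nerve, had at most 8 reads in a library and LAMC3 at most 10, and LAMB4 had 0 in all 4, so that these 3 were not tested.

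Levels were compared between chains in RPKM, which divides by a length for each gene that was not its genomic span. For LAMA4 that divisor was not fixed between libraries, as described above. The beta chain LAMB2 led in all 4 libraries, at 70.1 and 78.0 RPKM in the controls and 98.3 and 81.8 RPKM with cadmium. It was followed by LAMC1 at 37.5 to 41.2 RPKM, LAMB1 at 15.9 to 21.0 RPKM, LAMB3 at 10.3 to 19.0 RPKM and LAMA1 at 2.84 to 7.71 RPKM. The lowest places belonged to LAMA3 (1.81 to 2.95 RPKM), LAMA5 (0.600 to 3.18 RPKM) and LAMA4 (0.0562 to 0.292 RPKM). Within each group these ranges kept neighbours apart except for LAMA3 and LAMA5 with cadmium. There LAMA5 was above LAMA3 in replicate 1 (3.18 against 2.95 RPKM) and below it in replicate 2 (2.30 against 2.80 RPKM).

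**Figure D2:**
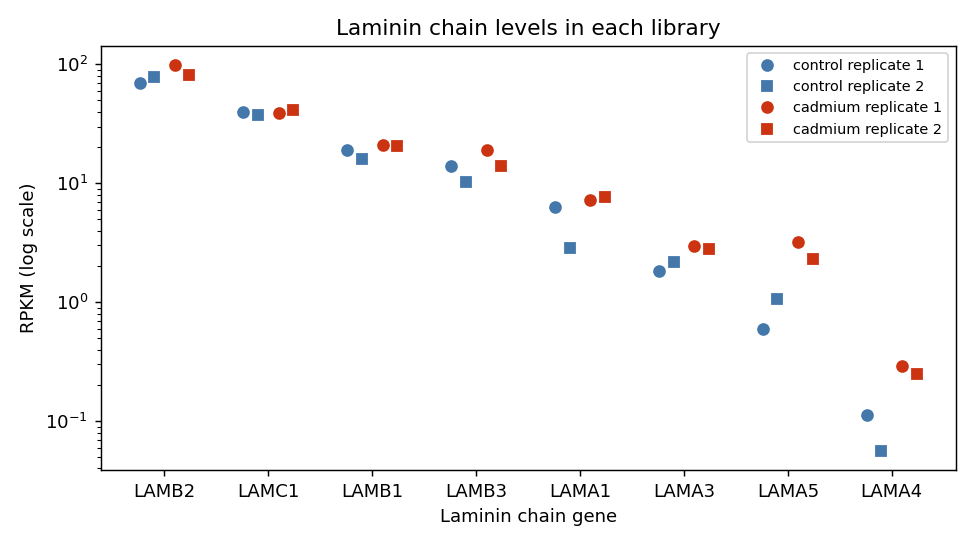
RPKM of the 8 laminin chain genes in each library, on a log axis, ordered by level, with controls in blue and cadmium libraries in red. LAMB2 leads in every library, and LAMA5 and LAMA4 show the widest gap between the groups. The LAMA4 points rest on 3 to 34 reads a library, and its RPKM was not a fixed multiple of its reads.

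The alpha chains were the scarce part of the family. Summed over LAMA1 to LAMA5 they reached 8.82 and 6.19 RPKM in the controls and 13.6 and 13.1 RPKM with cadmium. LAMA1, which did not pass the test, made up 6.26 and 2.84 RPKM of this in the controls and 7.19 and 7.705 RPKM with cadmium. The beta chains summed to 103 and 104 RPKM in the controls and 138 and 117 RPKM with cadmium, and the gamma chain LAMC1 alone lay between 37.5 and 41.2 RPKM in all 4 libraries. The ratio of summed alpha chains to LAMC1 was thus 0.194 ± 0.041 in control and 0.333 ± 0.0212 with cadmium (SD, n = 2 each), with no overlap. With 2 libraries against 2 an exact two-sided permutation test cannot go below p = 0.333, so no test of these ratios was made.

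Within the alpha chains the share of LAMA5 was 6.81% and 17.1% in the controls and 23.3% and 17.6% with cadmium. The share of LAMA1 was 71.0% and 45.8% in the controls against 52.7% and 58.9% with cadmium, and that of LAMA3 was 20.6% and 35.3% against 21.6% and 21.4%. The control libraries therefore differed from each other in makeup by more than control replicate 2 differed from the cadmium libraries in the share of LAMA5. LAMA5 relative to LAMC1 separated the groups further, at 0.0152 and 0.0282 in the controls and 0.0811 and 0.0559 with cadmium. Among beta chains the share of LAMB2 was 68.0% and 74.9% in the controls and 71.1% and 70.3% with cadmium, which overlapped.

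**Figure D3:**
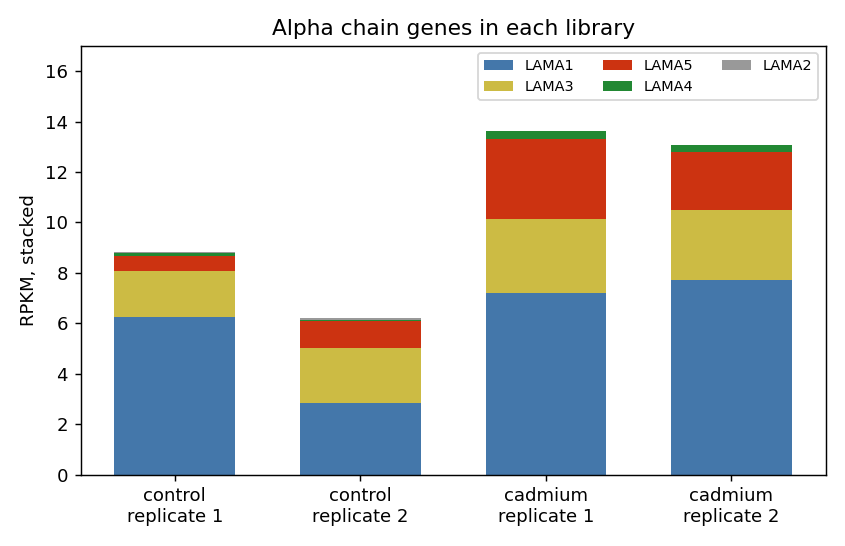
Stacked RPKM of the alpha chain genes in each library. The total is 8.82 and 6.19 RPKM in the controls and 13.6 and 13.1 RPKM with cadmium, and the LAMA5 part is larger in both cadmium libraries.

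The hemidesmosomal alpha and beta chains were unevenly represented. LAMB3 stood at 7.72 and 4.70 times the RPKM of LAMA3 in the controls and at 6.43 and 5.02 times with cadmium. The 2 groups overlapped in this ratio.

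Receptors for laminin were all tested, 10 of 10, and 2 rose, 1 fell and 7 did not pass. Over all tested genes 8.85% were higher and 7.66% lower, the shares to set beside this count and those of the gene lists below. ITGA7, the integrin alpha subunit best known as the laminin receptor of muscle, rose by 0.67 (SE 0.13, adjusted p = 0.0162, edgeR), from 122 and 162 CPM in the controls to 230 and 219 CPM with cadmium. ITGA6, the integrin alpha subunit of hemidesmosomes and other epithelial laminin adhesions, rose by 0.59 (adjusted p = 0.0144), from 21.6 and 22.5 to 32.3 and 33.7 CPM. CD151, a tetraspanin that binds laminin-binding integrins, fell by 0.31 (log2 units, adjusted p = 0.0272), from 501 and 523 to 416 and 409 CPM. Without cadmium replicate 1 these 3 calls were lost (adjusted p from 0.0518 to 0.157), and so were those of ITGA6 and CD151 without cadmium replicate 2 (adjusted p = 0.0885 and 0.174). CD151 also missed the threshold with scaling by library size alone (adjusted p = 0.0521). The receptor list had a median log2 fold change of 0.12, against 0.0019 over all tested genes.

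Among 18 other basement membrane genes 17 were tested, of which 4 rose, 2 fell and 11 did not pass, with a median log2 fold change of 0.14. NID2, a nidogen that links laminin to collagen IV, had 48 and 12 reads in the controls against 254 and 112 with cadmium. It rose by 2.18 (SE 0.25, adjusted p = 0.00349, edgeR), from 1.84 and 1.43 to 8.30 and 7.09 CPM, and passed under all 14 alternatives, with 0.88 on the log2(RPKM + 1) scale. FBLN1, a fibulin that binds laminin and nidogen, rose by 0.87 (SE 0.12, adjusted p = 0.00537), from 33.0 and 34.7 to 66.3 and 56.5 CPM. The related FBLN2 fell by 0.41 (log2 units, adjusted p = 0.0187), a call lost without cadmium replicate 2 (adjusted p = 0.136). COL4A4, a collagen IV chain, rose by 1.53 (adjusted p = 0.0412) from 13 and 5 reads to 53 and 20, and lost its call without control replicate 1 or either cadmium replicate (adjusted p from 0.104 to 0.354). The other two, named after their values were seen, were AGRN, which encodes agrin and rose by 0.33 (adjusted p = 0.0458), and the collagen IV chain COL4A1, which fell by 0.39 (log2 units, adjusted p = 0.0454). Both lost the call without control replicate 1 or either cadmium replicate (adjusted p from 0.101 to 0.205), and COL4A1 also with scaling by library size alone (adjusted p = 0.0797) and with the filter of 5 CPM (adjusted p = 0.0694).

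Of 5 tested hemidesmosome genes 2 rose, 1 fell and 2 did not pass, with a median log2 fold change of 0.59. DST, the plakin that ties keratin filaments to hemidesmosomes, rose by 0.66 (SE 0.12, adjusted p = 0.0125, edgeR), from 175 and 179 to 244 and 316 CPM, and passed under all 14 alternatives. The other passing genes, ITGA6 and CD151, are those given with the receptors. COL17A1, the transmembrane collagen of hemidesmosomes, had 1 read in all 4 libraries together and was not tested.

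Of 7 tested proteases and crosslinkers of the basement membrane 1 fell, 0 rose and 6 did not pass (median log2 fold change -0.063). LOXL2, a lysyl oxidase that crosslinks collagen IV, fell by 0.55 (log2 units, SE 0.090, adjusted p = 0.00952, edgeR), from 569 and 566 to 416 and 358 CPM, and passed under all 14 alternatives.

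**Figure D4:**
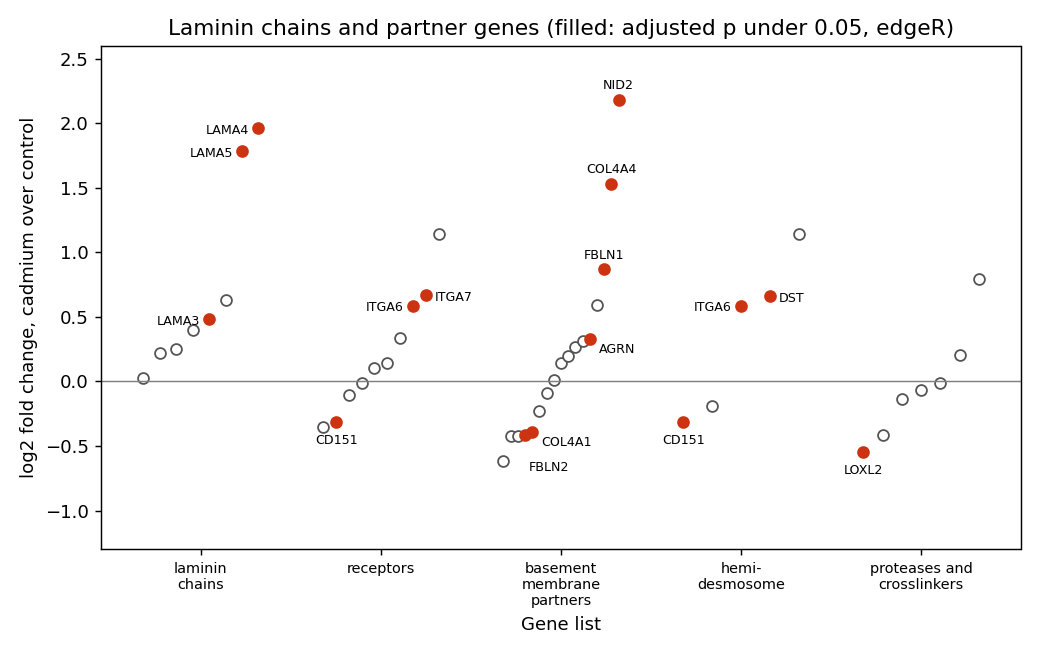
Log2 fold change, cadmium over control, of the laminin chains and of the tested genes of 4 partner lists, 1 point per gene and list, filled where the adjusted p is under 0.05 (edgeR). NID2, at 2.18, lies above all laminin chains, while LOXL2, at -0.55, is the lowest filled point.

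The genes whose levels across the 4 libraries lay closest to those of LAMA5, by Euclidean distance of mean-centred log2 CPM among 10790 genes with a mean of at least 5 CPM over the libraries, were CDK18 (distance 0.109), DBP (distance 0.124) and KRT17 (distance 0.162). CDK18, a cyclin-dependent kinase gene, had 18.8 and 31.4 CPM in the controls and 99.6 and 66.6 CPM with cadmium. KRT17, a keratin of basal and stressed epithelium, had 21.2 and 38.5 CPM against 118 and 74.2 CPM. Both had the lower level of the controls in replicate 1 and the higher level of the cadmium libraries in replicate 1, as LAMA5 did. With 4 libraries this likeness is a description of these samples.

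Markers that moved alongside are given as measured, beside 8.85% of all tested genes higher and 7.66% lower. Of 6 tested epithelial markers 3 rose (EPCAM by 1.36, NGFR by 1.60 and KRT15 by 2.56), all at under 6 CPM, and all 3 calls were lost without cadmium replicate 1 (adjusted p from 0.0994 to 0.237). KRT15 and CDH1 lay below the filter level in both controls (4 and 1 reads for KRT15) and entered the test only through the cadmium libraries, and without them 2 of 4 rose. KRT15 also lost its call without control replicate 1 (adjusted p = 0.106) and without cadmium replicate 2 (adjusted p = 0.0540). That list's summed level overlapped between the groups, at 748 and 919 CPM in the controls and 847 and 912 CPM with cadmium. Of 5 nuclear-retained RNAs, which also track RNA quality, 3 rose, MALAT1 by 0.87 (adjusted p = 0.00188, edgeR), NEAT1 by 0.59 and MIAT by 1.69. NEAT1 and MIAT lost the call without either cadmium replicate (adjusted p from 0.0570 to 0.175), and MIAT also without control replicate 1 (adjusted p = 0.205). Their summed level was 866 and 1061 CPM in the controls and 1419 and 1457 CPM with cadmium. The part of either in the laminin results was not tested. Among 4 tested fibroblast and mural genes 0 passed with edgeR. At an unadjusted p under 0.05 the count was 1, and DESeq2 called 1 of them (COL1A1, log2 fold change -0.32, adjusted p = 0.0690 with edgeR and 0.0430 with DESeq2). Of the leukocyte genes CD14 alone was tested and of the ciliated and secretory genes TPPP3 alone, and neither passed (adjusted p = 0.826 and 0.160, edgeR).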

How the data were processed

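RNA from 4 libraries was analysed, 2 control and 2 cadmium. Per the labels' protocols, total RNA was column-purified and made into TruSeq libraries. Tools named in the submitters' processing notes are STAR 2.4, DESeq2 and DESeq, with the build hg19 and no role for each, while the counter, annotation release and strand use were not given in the sources used here. Per the file headers, the authors deposited whole-number read counts and RPKM per RefSeq gene and library. The authors' deposited comparison table adds a log ratio, taken as log2 although its base is not stated, with raw and adjusted p-values. For LAMA5 and LAMA3 this log ratio is below the log2 ratio of the mean RPKM given beside it.

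Counts were filtered with filterByExpr (10 reads in the median library, 0.475 CPM) and TMM-scaled, and fitted with group alone by edgeR 4.0.16 (glmQLFit, robust, and glmQLFTest) in R 4.3.3. Benjamini-Hochberg adjustment covered all 13663 genes. SEs were derived from F statistics. Alternatives used DESeq2 1.42.0, limma 3.58.1 (voom, and log2(RPKM + 1) or log2(RPKM + 0.1) of genes with at least 1 RPKM in 2 libraries), other scalings and filters, a replicate block and each library left out. The fit was tested on 1 draw of simulated data over 13663 genes, with 50 genes at each changed level. It recovered 100% and 90% of them at log2 fold changes of 2 and -2, and 82% and 64% at 1 and -1. There were 8 false calls, and no smaller change was simulated. The members and all lists were chosen with earlier results of these data known. From each partner or marker list up to 4 passing genes of smallest p were named, or 1 of smallest p where none passed. Some genes and 1 list are not reported here.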

Additional observations from a re-analysis of the deposited data

How the results depend on the processing

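The number of laminin chain genes higher with cadmium was 3 as reported, and 1 with DESeq2 and with limma on log2(RPKM + 1) and on log2(RPKM + 0.1). LAMA4 had no adjusted p with DESeq2 and lay below the RPKM filter, and the cause of the lost LAMA3 call was not tested. Leaving out 1 library gave 1 to 4 higher, with LAMA5 alone without either cadmium replicate. Without control replicate 1 the 3 were LAMA1, LAMA5 and LAMB1, so that LAMA3 and LAMA4 were lost, and without control replicate 2 the 4 were LAMA3, LAMA4, LAMA5 and LAMB2. No alternative gave a lower member. Over all genes, 682 were lower with library size alone, 532 higher and 454 lower on log2(RPKM + 1), and 471 and 406 on log2(RPKM + 0.1). Leaving out 1 library gave 369 to 1977 higher and 235 to 1791 lower, the lowest without cadmium replicate 1 and the highest without control replicate 2. Among named genes the leave-one-out range crossed 0 for LAMC1 (-0.013 to 0.079) and CD14 (-0.26 to 0.48), neither of which passed the test with all libraries. Fits without a library assume that a lone sample varies like the other group, and the causes of these changes were not tested.

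The titles number the libraries 1 and 2 in both groups, but deviations of same-numbered libraries had a correlation of -0.14 over 13663 genes, so the numbers were not taken as pairs. With a replicate block 2 members (LAMA5 and LAMB3, the latter at an edgeR adjusted p of 0.0341), 1073 genes in all higher and 811 lower passed. With the numbers crossed, chosen after seeing the data, 3 members (LAMA3, LAMA5 and LAMB2), 1551 genes higher and 1471 lower passed. The depth limits LAMA4 most, at 3 to 34 reads a library.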

Other observations

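Some genes of the laminin system had replicates far apart, and their groups overlapped. ITGB4, the integrin beta subunit of hemidesmosomes, stood at 15.6 and 45.5 CPM in the controls and 82.5 and 42.0 CPM with cadmium, and its log2 fold change of 1.14 (SE 0.79) did not pass (adjusted p = 0.430, edgeR). MMP2, a protease that can cleave laminin, stood at 6.72 and 14.7 CPM in the controls and 22.7 and 11.6 CPM with cadmium (adjusted p = 0.399, edgeR). BCAM, a laminin receptor that binds the product of LAMA5, stood at 109 and 207 CPM in the controls and 211 and 184 CPM with cadmium (adjusted p = 0.593, edgeR). These 3 genes were singled out after their values were seen. In all 3, control replicate 1 was the lowest of the 4 libraries and cadmium replicate 1 the highest, as for LAMA5. The pseudogene LAMB2P1, a partial copy of LAMB2, had 3 and 1 reads in the controls against 13 and 6 with cadmium and was not tested.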
